A study of Homo sapiens with 6 samples.

Results

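The PTBP, MBNL and RBFOX2 genes encode RNA-binding proteins that decide which exons enter other genes' transcripts, and their own transcripts are spliced in alternative ways. Here 6 of these genes were followed at the level of splice junctions: PTBP1, PTBP2, PTBP3, MBNL1, MBNL3 and RBFOX2. A junction belonged to a gene when both ends of its intron lay, on the gene's strand, inside a window set around that gene in the human genome build hg19. The introns found spanned chr19:797506-812105 for PTBP1, chr1:97187429-97278831 for PTBP2, chr9:114982654-115095749 for PTBP3, chr3:151961722-152180173 for MBNL1, chrX:131513706-131547610 for MBNL3 and chr22:36140297-36424287 for RBFOX2. PTBP3, MBNL3 and RBFOX2 lie on the minus strand and the others on the plus strand. These windows held 295 of the 780566 junctions in the files: 64 in PTBP1, 43 in PTBP2, 67 in PTBP3, 63 in MBNL1, 5 in MBNL3 and 53 in RBFOX2.

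The libraries came from K562, an established human chronic myeloid leukaemia line, by selection of poly(A)+ RNA and paired-end sequencing. One group of 3 libraries carried a knock-in of wild-type U2AF1, and the other group of 3 carried U2AF1 S34F, in which serine is replaced by phenylalanine. U2AF1 is the splicing factor subunit that recognises the AG dinucleotide with which introns end. No drug or time course was applied in either group, as far as the labels say. The labels do not say whether the libraries of a group came from separate cultures or clones, so p-values measure the spread between these libraries, which may be technical. The comparison asks whether the mutant U2AF1 changes the level or the splicing of these regulators, and junction tables do not show the mutated base itself.

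PTBP1 binds pyrimidine-rich RNA and mostly represses exons near its sites. PTBP2 is its paralog in neurons, and PTBP1 keeps PTBP2 low in other cells by causing an exon of PTBP2 to be skipped, which leads to decay of the transcript. PTBP3 is another paralog, prominent in blood cells. MBNL proteins bind YGCY motifs and drive a switch from fetal to adult exon choice, and RBFOX2 binds UGCAUG and acts on exons by the side on which it binds. Many of these genes hold short alternative exons that change the protein's activity or location, or that introduce a premature stop.

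The libraries held between 18074706 (S34F replicate 2) and 39279169 (S34F replicate 3) uniquely mapped spliced reads. Counts over all genes moved with single libraries: the number of junctions called for acceptor usage was 1092 with all 6 libraries, 77 without S34F replicate 3 and 1932 without wild-type replicate 1. Multi-mapped reads took 0% to 6.80% of the spliced reads of each of these genes other than MBNL3, and were not counted in the values below. Of the 295 junctions, 117 were annotated in the files, 277 had at least 1 unique read, 18 had multi-mapped reads only and 92 had a unique read in every library. By motif, 290 were of the GT-AG kind and 5 of the GC-AG kind.

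The genes differed in level. Their levels were set against each other by the median over annotated junctions of unique reads per 1000000 unique spliced reads, since a junction has no length, abbreviated RPM below. Only annotated junctions with a mean of at least 10 reads per library entered this median: 18 in PTBP1, 16 in PTBP3, 15 in PTBP2, 14 in MBNL1 and 14 in RBFOX2. PTBP1 had the highest level, with a median of 28.1 ± 3.3 RPM among the wild-type libraries and 32.4 ± 6.3 RPM among the S34F libraries (SD, n = 3 in each group). PTBP3 followed at 10.2 ± 0.65 and 8.67 ± 0.78, and MBNL1 at 4.82 ± 0.34 and 5.26 ± 0.27. PTBP2 was at 1.53 ± 0.54 and 1.10 ± 0.18, and RBFOX2 at 1.28 ± 0.049 and 1.47 ± 0.24. PTBP1 exceeded PTBP3 in every library, by 2.44 to 4.75 times, and PTBP3 exceeded MBNL1 by 1.54 to 2.21 times. MBNL1 exceeded RBFOX2 by 3.30 to 4.16 times. PTBP2 and RBFOX2 could not be ordered, since the ratio of PTBP2 to RBFOX2 lay between 0.547 and 1.59. The ratio of PTBP1 to its neuronal paralog PTBP2 lay between 12.9 and 44.3.

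**Figure D1:**
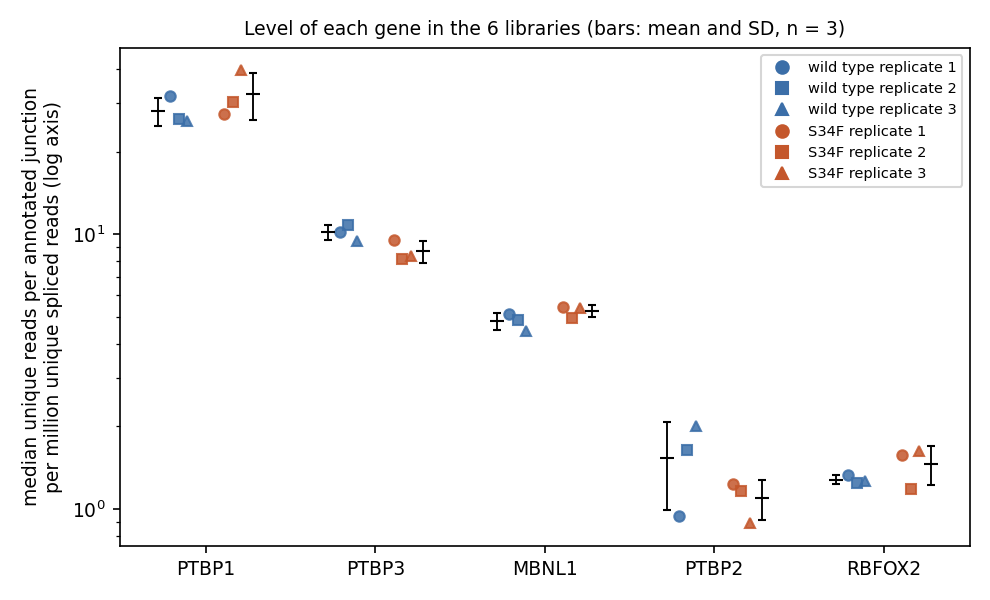
Level of 5 genes in each library, as the median RPM over annotated junctions, on a log axis; symbols are libraries and bars the mean and SD of 3 libraries. PTBP1 lies above PTBP3 and PTBP3 above MBNL1 in each of the 6 libraries, and PTBP2 and RBFOX2 overlap; MBNL3, with at most 2 reads in a library, is not drawn.

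MBNL3, the family member best known from placenta and fetal tissue, was close to undetected. Its window held 5 annotated junctions, with 0, 0 and 2 unique reads in wild-type replicates 1 to 3 and 0, 2 and 2 in S34F replicates 1 to 3. A count of 0 allows up to 3 reads, which is 0.0764 to 0.166 RPM depending on the library, by counting error only. No library was above that limit, no fold was taken and no MBNL3 event could be tested. No annotated exon of 54 nt was found in its junctions, and the 36 nt exon at chrX:131518691-131518726 had 1 read on each side, both in wild-type replicate 3.

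Total spliced reads per gene were then compared between the groups. No gene could pass this test, because 0.1 is the smallest two-sided p that an exact permutation of 3 against 3 libraries allows. PTBP1 had totals of 533, 472 and 452 RPM in the wild-type libraries and 464, 513 and 672 in the S34F libraries. The groups overlapped, with S34F replicate 3 highest, and the mean log2 difference of S34F from wild type was 0.16 (two-sided exact permutation p = 0.6). PTBP3 had 145.3, 161.8 and 148.0 in the wild-type libraries and 144.5, 121.0 and 129.7 in the S34F libraries. Its groups did not overlap, though S34F replicate 1 lay just under wild-type replicate 1, and the log2 difference was -0.21 (exact permutation p = 0.1). PTBP2 had 16.005, 24.0 and 29.2 in the wild-type libraries and 20.2, 15.9 and 14.8 in the S34F libraries. These overlapped, at a log2 difference of -0.41 (exact permutation p = 0.2). MBNL1 had 69.4, 71.3 and 57.1 in the wild-type libraries and 69.4, 68.1 and 69.9 in the S34F libraries, a log2 difference of 0.07 (exact permutation p = 0.8) that was -0.03 without wild-type replicate 3. RBFOX2 had 17.8, 19.2 and 16.98 in the wild-type libraries and 25.4, 17.2 and 21.2 in the S34F libraries, a log2 difference of 0.22 (exact permutation p = 0.3). In bulk RNA, fewer cells that express a gene and less of its RNA per cell cannot be told apart.

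Each annotated junction was also tested for its level with edgeR across 113836 junctions, of which 152 were called (0.134%) at an adjusted p under 0.05. None of the 77 tested junctions of these genes passed, a count of 0, while 5 reached an unadjusted p under 0.05 (6.49%, against 13.7% of all tested). The groups did not overlap at 10 of the 77 (background 17.7%). DESeq2 also called 0 of the 77, against 1386 of 113836 tested. It had 4 of the 77 at an unadjusted p under 0.05, against 11703 of 113836. The lowest edgeR adjusted p was 0.233, at the PTBP3 junction chr9:115030476-115038123. Estimates within a gene leaned one way in some genes: 15 of 16 PTBP3 junctions and 15 of 15 PTBP2 junctions were below 0, and 14 of 18 PTBP1 and 11 of 14 RBFOX2 junctions were above 0, with the same counts under TMM and RLE scaling. MBNL1 was split, with 8 of 14 above 0. Junctions of a gene share its transcripts and are not independent. The median absolute log2 fold change was 0.22 over the 77 and 0.26 over all tested.

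**Figure D2:**
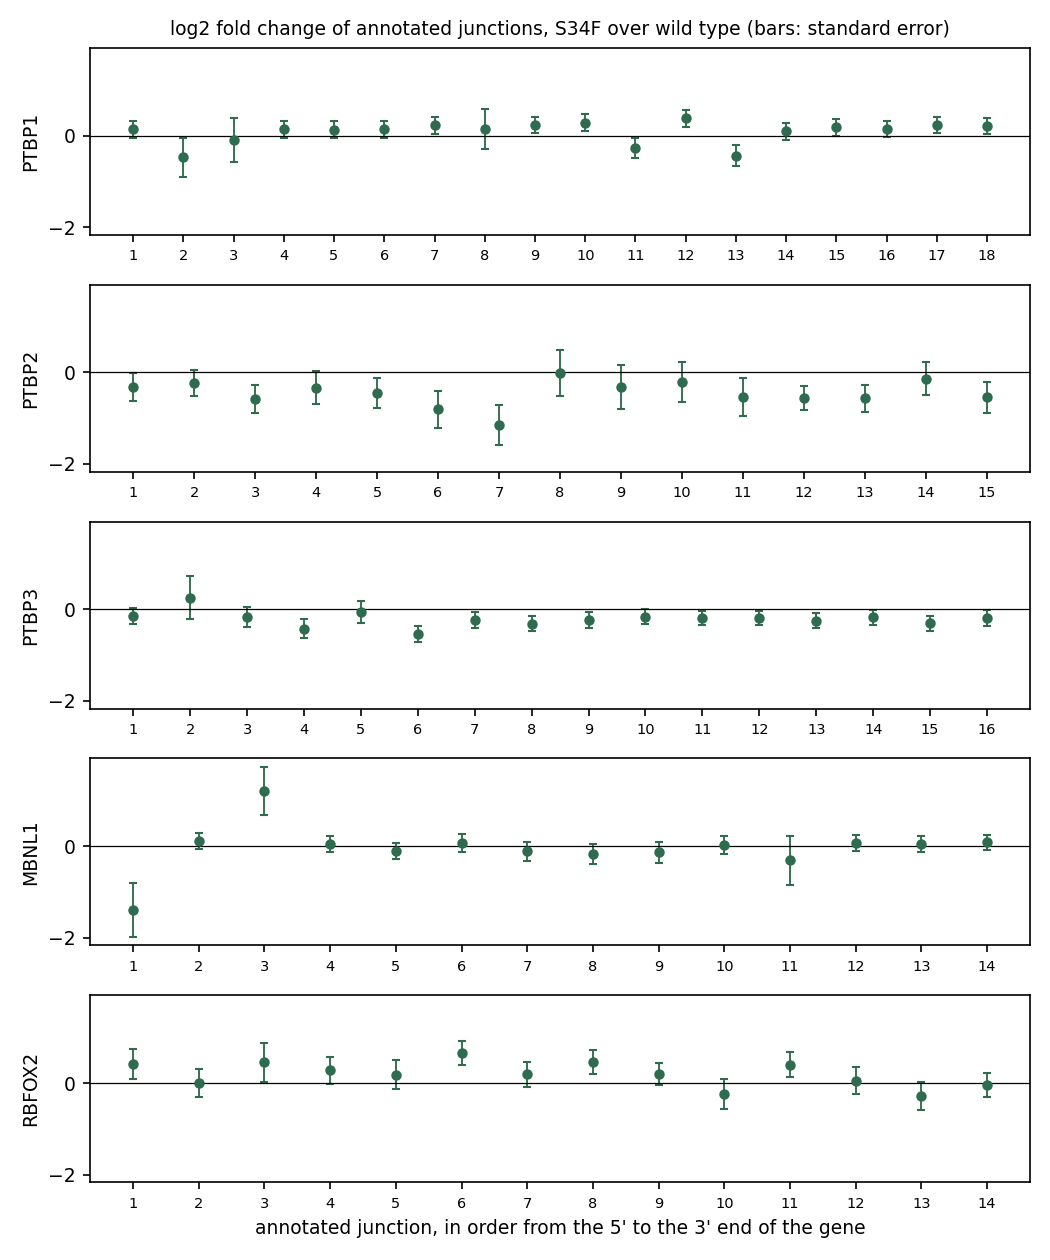
edgeR log2 fold change (S34F over wild type) of each annotated junction with a mean of at least 10 reads per library, ordered from the 5′ to the 3′ end of the gene; bars are standard errors. No point passed the adjusted threshold; MBNL1 points 1 and 3 lie farthest from 0, at -1.40 and 1.21, and PTBP1 points 11 and 13, which flank the 78 nt exon, lie below 0 beside point 12, which skips it.

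Splice site choice was measured as shares. At each 5′ splice site the reads of a junction were divided by all reads leaving that site, at each 3′ splice site by all reads entering it, and exon inclusion was the mean of both inclusion junctions over that mean plus the skipping junction. A call needed an edgeR adjusted p under 0.05 over all events of the tables and mean shares at least 10 percentage points apart. At 5′ splice sites, 0 of 47 tested junctions of these genes were called, against 1092 of 51522 (2.12%). At 3′ splice sites 0 of 39 were called, against 451 of 48269 (0.934%), and for exon inclusion 0 of 16, against 529 of 19272 (2.74%). DESeq2 also called 0 of these events, against 140 of all tested at 5′ sites, 185 at 3′ sites and 271 for exon inclusion. At an unadjusted p under 0.05 DESeq2 had 2 of 47, 4 of 39 and 4 of 16 events of these genes. Over all tested it had 6111 of 51522, 5914 of 48269 and 3425 of 19272. The limma test called 0 events in the whole of each class, so its 0 calls here carry no information on these genes. Its counts at an unadjusted p under 0.05 were 2 of 47, 2 of 39 and 2 of 16. Over all tested they were 9648 of 51522, 7794 of 48269 and 4342 of 19272.

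An unadjusted edgeR p under 0.05 was reached by 5 of the 47 junctions at 5′ sites (background 19.9%), by 6 of the 39 at 3′ sites (background 17.3%) and by 5 of the 16 cassette events (background 23.9%). The groups did not overlap at 10 of 47 (background 25.2%), 7 of 39 (22.4%) and 4 of 16 (29.4%). The median absolute difference was 1.01 percentage points over the 47 junctions and 1.48 over all tested, 0.704 against 1.43 at 3′ sites, and 1.11 against 1.75 for cassette events. The 16 cassette events come from 14 exons, since the PTBP1 34 nt exon and the PTBP3 170 nt exon each have 2 skipping junctions, and overlapping events share reads. Among the 5 is a 57 nt form of the PTBP1 78 nt exon, which uses the downstream junction of that exon. Most candidates had too few reads for a test: 47 of 192 candidate junctions at shared 5′ sites entered it, among them 4 of 27 in RBFOX2 and 4 of 30 in PTBP2. At a site with only 2 junctions the shares mirror each other, and the 47 junctions come from 21 sites.

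**Figure D3:**
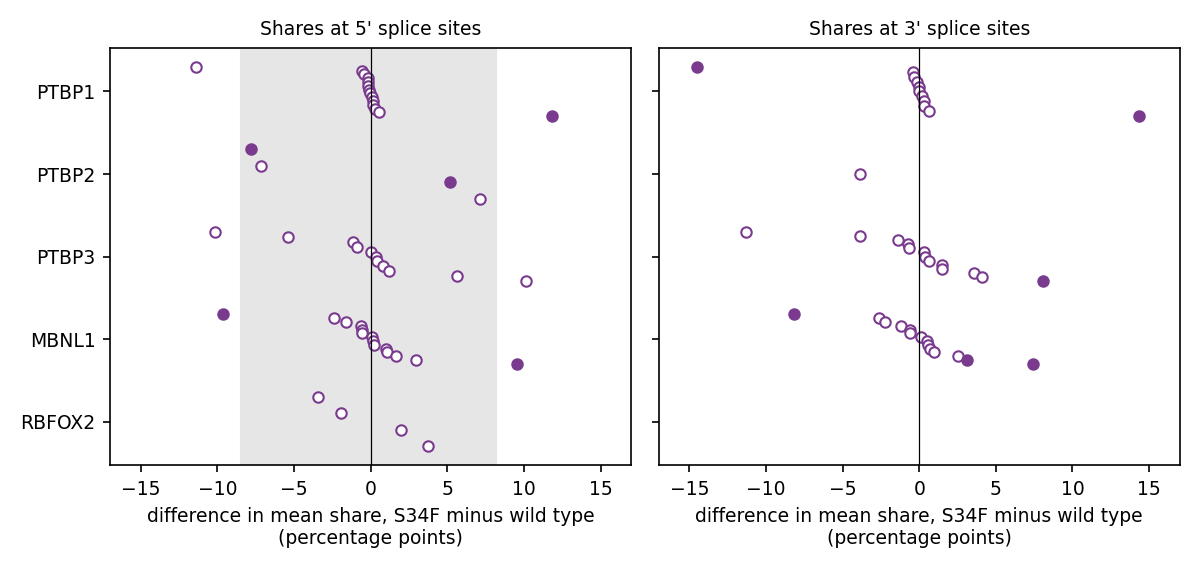
Difference in mean share between S34F and wild type (percentage points) for every tested junction of 5 genes, by gene, at 5′ splice sites (left) and 3′ splice sites (right); filled points had an unadjusted edgeR p under 0.05 and the grey band, drawn at 5′ splice sites only, runs from the 5th percentile, -8.44, to the 95th, 8.16, of all junctions tested there. The PTBP1 points beyond 10 are the junctions around its 78 nt exon, from -14.5 to 14.3 at 3′ sites; RBFOX2 had no testable 3′ site.

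PTBP1 showed the widest difference in share. Its 78 nt exon at chr19:805492-805569, known as exon 9, encodes part of the linker between RNA-binding domains, and its skipping is known to lower the repressor activity of PTBP1. Inclusion was 55.5%, 51.9% and 56.1% in the wild-type libraries and 42.5%, 36.2% and 45.9% in the S34F libraries. All S34F libraries lay below all wild-type libraries. The group means were 54.5% ± 2.2 and 41.5% ± 4.9 (SD, n = 3 in each group), a difference of -13.0 percentage points. In log2 odds this was -0.75 (SE 0.31, edgeR adjusted p = 0.154), which did not pass the threshold. It passed under none of the 13 alternatives run, where the estimate stayed between -0.88 and -0.59. Among these, limma and the fit without S34F replicate 3 called 0 exons over all genes, so they could not have given a call. Between 387 and 1221 reads per library informed the inclusion level.

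Each end of that exon gave a similar picture. The 5′ splice site upstream of it, at 805188, was joined to the exon in 55.4% ± 2.4 of its reads in the wild-type libraries and 44.0% ± 4.3 in the S34F libraries. The same site was joined directly to the next exon, at 806407, in 43.5% ± 1.8 and 55.3% ± 4.3 (log2 odds 0.68, SE 0.32, edgeR adjusted p = 0.232). At the 3′ splice site 806407, reads from the 78 nt exon took 54.2%, 49.9% and 54.2% in the wild-type libraries and 40.7%, 31.5% and 42.6% in the S34F libraries. Those groups did not overlap either (log2 odds -0.84, SE 0.34, edgeR adjusted p = 0.193). These 3 measures share reads and are not independent of each other. A shorter annotated form of the exon, 57 nt long and starting after the acceptor at 805512, took 1.10% ± 0.57 and 0.536% ± 0.21 of the reads at the 5′ site. The 57 nt form shares its downstream junction with the 78 nt exon, so its inclusion level was not read separately.

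The 34 nt exon of PTBP1, at chr19:807869-807902, is exon 11, and its skipping shifts the reading frame and sends the transcript to decay, by which PTBP1 limits its own level. It was included at 97.5%, 97.9% and 97.8% in the wild-type libraries and 98.1%, 97.1% and 97.9% in the S34F libraries, measured against the skipping junction chr19:806557-808359. Those libraries overlapped fully and the difference was -0.0282 percentage points (log2 odds 0.02, SE 0.42, edgeR adjusted p = 0.984), with mean and fitted odds of opposite sign close to 0. That skipping junction is unannotated in the files and had 21, 14 and 10 reads in the wild-type libraries and 12, 15 and 31 in the S34F libraries. Against a longer skip, which starts at 799444, the inclusion level was 98.7% ± 1.1 and 99.4% ± 0.47 (edgeR adjusted p = 0.489). That skip had 0 to 9 reads per library, and the junction from 799444 into the exon only 1 to 3. The level therefore rests on the exon's downstream junction, with 506 to 1565 reads per library. It does not show how often the exon is included from 799444. Transcripts that decay are depleted from poly(A)+ RNA, and these values do not measure how often they are made. The other tested PTBP1 sites were nearly fixed. A 31 nt exon near the start, at chr19:799413-799443, was included at 98.7% ± 0.48 and 99.2% ± 0.12 (edgeR adjusted p = 0.430). The acceptor at 804540, 9 nt beyond the one at 804531, took 1.78% ± 0.079 and 1.63% ± 0.27. A second exon of 78 nt, at chr19:810543-810620, had 0 skipping reads.

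PTBP2 carries the counterpart of that exon, the 34 nt exon 10 at chr1:97271975-97272008, whose skipping under PTBP1 leads to decay. It had fewer than 20 reads in at least 1 library and was not tested. Counting all junctions across it as skipping, it was included at 48.0%, 29.0% and 50.6% in the wild-type libraries and 35.0%, 54.8% and 32.1% in the S34F libraries. The libraries of each group spread over more than 20 percentage points and interleaved, at means of 42.6% ± 11.8 and 40.6% ± 12.4. Skipping reads were 13, 33 and 19 in the wild-type libraries and 26, 7 and 36 in the S34F libraries.

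Downstream in PTBP2, a 78 nt exon at chr1:97278585-97278662 was skipped by a few reads through an unannotated junction. Its inclusion was 97.6%, 100% and 100% in the wild-type libraries and 97.8%, 89.8% and 89.0% in the S34F libraries. The level averaged the reads entering the exon with those leaving it to the acceptor at 97278831. Reads leaving it to another acceptor, at 97278828, numbered 20 to 28 per library and were left out. Wild-type replicate 1 and S34F replicate 1 were nearly equal, so the groups overlapped. The log2 odds differed by -3.15 (SE 1.13), with an edgeR adjusted p of 0.0993, the lowest of any exon tested in these genes, on 30 to 51 reads per library. Seen from its upstream 5′ splice site at 97278485, the annotated acceptor took 98.2%, 96.7% and 98.5% in the wild-type libraries and 96.2%, 90.2% and 83.6% in the S34F libraries (edgeR adjusted p = 0.113). After this exon PTBP2 uses a pair of acceptors 3 nt apart. The first, at 97278828, took 45.1%, 37.9% and 38.6% in the wild-type libraries and 35.7%, 59.0% and 48.3% in the S34F libraries, with S34F libraries on both sides of the wild-type range (edgeR adjusted p = 0.714).

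In PTBP3 the variable part lay near the 5′ end of the gene. A 170 nt exon at chr9:115038124-115038293 was included or skipped from either of 2 5′ splice sites 9 nt apart, at 115060111 and 115060120. Against the skip from 115060120 its inclusion level was 84.5%, 75.8% and 81.6% in the wild-type libraries and 68.3%, 70.1% and 68.4% in the S34F libraries. All S34F libraries were lower, with means of 80.6% ± 4.5 and 68.9% ± 1.0 (log2 odds -0.90, SE 0.37, edgeR adjusted p = 0.145). Against the skip from 115060111 the level was 73.7%, 69.7% and 72.2% in the wild-type libraries and 66.7%, 65.0% and 64.6% in the S34F libraries. Those groups did not overlap, and the difference was smaller (log2 odds -0.43, SE 0.33, edgeR adjusted p = 0.458). Whether the 5′ sites differ from each other was not tested. Both levels average in the reads that leave the exon downstream, which can come from either site. Of the reads leaving 115060120 itself, 72.8% ± 4.8 (wild type) and 62.6% ± 1.7 (S34F) entered the exon (log2 odds -0.67, SE 0.39, edgeR adjusted p = 0.358). The skip took 26.5% ± 4.4 and 36.6% ± 1.1 of them (edgeR adjusted p = 0.355). Of those leaving 115060111, 69.1% ± 2.1 and 63.7% ± 1.3 entered the exon (edgeR adjusted p = 0.646). At the acceptor that follows, 115030476, reads from the 170 nt exon took 64.8% ± 4.9 in the wild-type libraries and 53.5% ± 0.93 in the S34F libraries (log2 odds -0.68, SE 0.37, edgeR adjusted p = 0.352).

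The skip from 115060120 is the most-read unannotated junction of these genes, with 192 reads over the 6 libraries and 57.8% of the unannotated reads of PTBP3. Its share at the acceptor 115030476 was 9.05%, 14.5% and 11.2% in the wild-type libraries and 20.5%, 19.0% and 19.5% in the S34F libraries. The S34F libraries were tightly grouped above all wild-type libraries (log2 odds 0.90, SE 0.40, edgeR adjusted p = 0.241), without passing. Unannotated junctions in all took 1.31% ± 0.20 of PTBP3 reads in the wild-type libraries and 1.80% ± 0.063 in the S34F libraries, with no overlap (two-sided exact permutation p = 0.1, the smallest possible). That total includes the same skip, with 18, 35 and 19 reads in the wild-type libraries and 39, 22 and 59 in the S34F libraries. It is therefore not a separate result, and the other unannotated junctions of PTBP3 were not compared without the skip. Over all genes the unannotated share was 1.14% ± 0.11 and 1.31% ± 0.072, with overlap. This share also overlapped in the other genes, at means of 0.318% and 0.243% in PTBP1, 1.33% and 2.15% in PTBP2, 1.65% and 2.00% in MBNL1 and 1.61% and 1.21% in RBFOX2. The 34 nt exon of PTBP3 that matches the decay exon of its paralogs, at chr9:114993660-114993693, was nearly always included, at 99.6% ± 0.41 and 99.6% ± 0.59, with 7 skipping reads in all libraries together. Exons of 175 nt at chr9:115013209-115013383 and of 165 nt at chr9:115024715-115024879 were skipped by at most 7 and 13 reads per library. Their inclusion was 99.2% ± 0.78 and 98.5% ± 0.64 for the first, and 99.0% ± 0.62 and 97.7% ± 1.4 for the second (edgeR adjusted p = 0.533 and 0.233). Another 34 nt exon, at chr9:115092721-115092754 near the start of the gene, was included at 4.21% ± 1.6 and 5.11% ± 2.0 (edgeR adjusted p = 0.767).

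**Figure D4:**
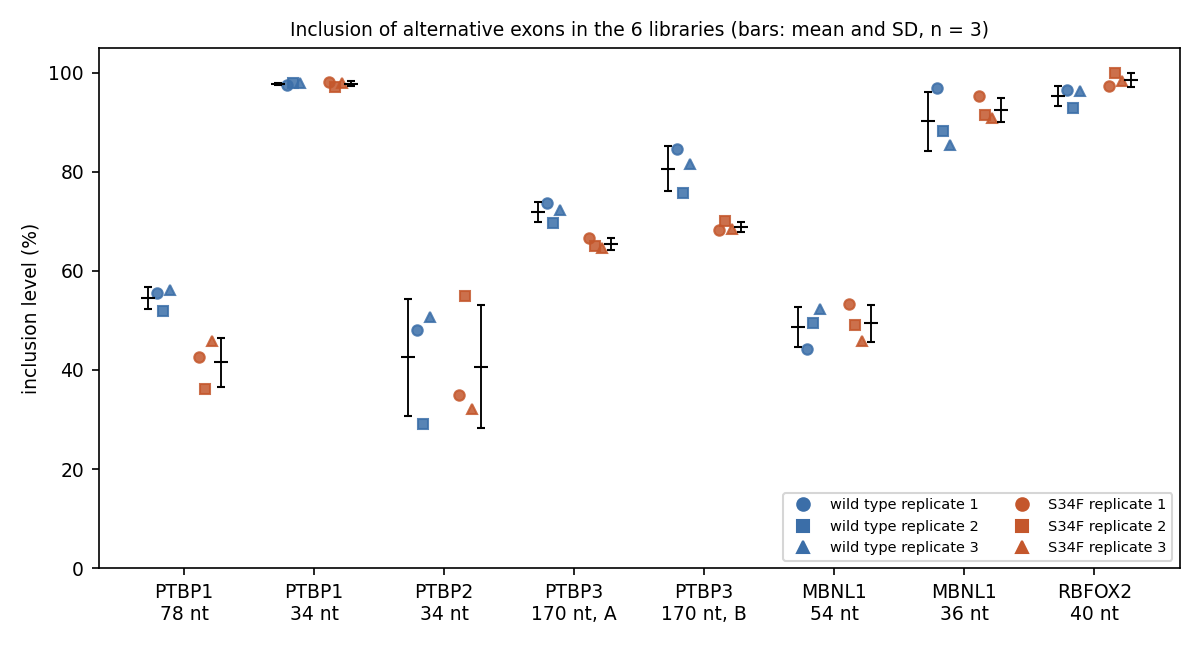
Inclusion level (%) of alternative exons in each library; symbols are libraries and bars the mean and SD of 3 libraries. For the PTBP3 exon, A counts skipping from the 5′ splice site at 115060111 and B from 115060120, and both average in the same downstream reads. The PTBP2 and RBFOX2 exons were too thinly read to be tested. For both, all junctions across the exon counted as skipping, while each other level used a single skipping junction. The S34F libraries lie below wild type at the PTBP1 78 nt exon (36.2% to 45.9% against 51.9% to 56.1%) and the PTBP3 exon, and none of these differences passed the adjusted threshold.

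MBNL1 varied near its start, in the exons joined to the acceptor at 152017193 and at a 5′ splice site shortly after it. Reads into that acceptor came mostly from the 5′ splice site at 151986882, with 83.6% ± 7.1 in the wild-type libraries and 91.0% ± 4.1 in the S34F libraries (edgeR adjusted p = 0.265). Another exon farther upstream has its 5′ splice site at 151962230. Whether it is a first exon was not determined, and an unannotated junction, chr3:151961722-151962109, ended shortly before that site with 24 reads. The site at 151962230 supplied 21.9%, 10.5% and 9.09% in the wild-type libraries and 8.96%, 5.26% and 2.86% in the S34F libraries. Wild-type replicate 1 stood high, and the lowest wild-type library was only just above the highest S34F library. The log2 odds differed by -1.51 (SE 0.55, edgeR adjusted p = 0.140). Over the 13 alternatives they ranged from -2.04 to -0.94, the latter without wild-type replicate 1.

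From the 5′ splice site at 152018157 most MBNL1 reads went to the exon after 152132729, and a minority to an annotated acceptor at 152019707. Few reads left the exon that begins there: junctions starting between these acceptors held 10 unique reads in all 6 libraries. The share of 152019707 was 17.1%, 3.20% and 9.03% in the wild-type libraries and 16.7%, 24.4% and 16.8% in the S34F libraries. Wild-type replicate 1 was as high as the S34F libraries and the groups overlapped (log2 odds 1.19, SE 0.47, edgeR adjusted p = 0.148). Without wild-type replicate 1 the estimate was 1.96 with an edgeR adjusted p of 0.00832, where the adjusted p-values over all 13 alternatives ranged from 0.00832 to 0.642. Without wild-type replicate 2 the estimate was 0.62 (edgeR adjusted p = 0.527). The share of 152132729 was 77.4%, 94.98% and 88.2% in the wild-type libraries and 81.1%, 69.0% and 81.5% in the S34F libraries (log2 odds -1.002, SE 0.47, edgeR adjusted p = 0.231). It too was called only without wild-type replicate 1 (edgeR adjusted p = 0.0150, over a range of 0.0150 to 0.745 among the 13 alternatives), where the log2 odds were -1.73, and they were -0.45 without wild-type replicate 2.

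The regulated exons of MBNL1, of 54 nt and 36 nt, gave overlapping values. The 54 nt exon 5 at chr3:152164493-152164546 favours a nuclear location of the protein, and MBNL proteins are known to repress it in their own transcripts. Its inclusion was 44.2%, 49.4% and 52.3% in the wild-type libraries and 53.3%, 49.1% and 45.9% in the S34F libraries, so that both groups centred near an even split. The difference was 0.787 percentage points (log2 odds 0.04, SE 0.34, edgeR adjusted p = 0.954). The 36 nt exon 7 at chr3:152173331-152173366, linked to contacts between MBNL1 molecules, was included at 96.8%, 88.3% and 85.4% in the wild-type libraries and 95.3%, 91.4% and 90.8% in the S34F libraries. Wild type spanned the S34F range on both sides (log2 odds 0.32, SE 0.53, edgeR adjusted p = 0.756). A rarely used 64 nt exon at chr3:152175919-152175982 was included at 2.96%, 0.216% and 0.386% in the wild-type libraries and 3.69%, 2.72% and 4.24% in the S34F libraries. Wild-type replicate 1 again lay among the S34F libraries (log2 odds 1.42, SE 0.64, edgeR adjusted p = 0.189, and 0.0312 to 0.759 over its 13 alternatives, none of which gave a call). Its log2 odds were 2.68 without wild-type replicate 1 and 0.88 without wild-type replicate 2. At the 3′ splice site 152177059, reads from this exon took 2.93%, 0.427% and 0% in the wild-type libraries. In the S34F libraries they took 4.37%, 4% and 4.24%, on at most 15 reads per library. Those groups did not overlap (log2 odds 1.80, SE 0.70, edgeR adjusted p = 0.175), and the difference did not pass. A 204 nt exon at chr3:152150506-152150709 was nearly constitutive, at 96.0% ± 2.3 and 96.2% ± 0.43, and a 93 nt exon at chr3:152018670-152018762 was rare, at 2.89% ± 1.5 and 3.20% ± 1.2.

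RBFOX2 was thinly read, and 0 of its 3′ sites and exons reached the minimum for a test. Its 40 nt exon at chr22:36152152-36152191 was the one in use in K562, with inclusion of 96.6%, 92.9% and 96.4% in the wild-type libraries and 97.3%, 100% and 98.3% in the S34F libraries. All S34F libraries lay above wild type, but on 6 skipping reads in all, and this was not tested with edgeR. The 43 nt exon at chr22:36148660-36148702, the form typical of muscle, had 1 inclusion read in all 6 libraries, in wild-type replicate 1. The 93 nt exons at chr22:36157249-36157341 and chr22:36164304-36164396 had 1 skipping read in all, in S34F replicate 1. Skipping of the exon within the RNA-binding domain is known to give an RBFOX2 that cannot bind RNA.

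Acceptors 3 nt apart were the measurable choice in RBFOX2. At the 5′ splice site 36205826, the acceptor at 36177794 took 27.1%, 42.1% and 37.0% in the wild-type libraries and 44.6%, 32.1% and 35.4% in the S34F libraries, against the one at 36177791. The groups interleaved (log2 odds 0.16, SE 0.48, edgeR adjusted p = 0.90), on 27 to 99 reads per library. The second such pair lies one exon downstream, where the acceptor at 36174123 took 2.22%, 3.70% and 0% in the wild-type libraries and 3.797%, 10.3% and 3.03% in the S34F libraries on at most 3 reads per library (edgeR adjusted p = 0.626). With site totals of 29 to 79 reads, differences of a few percentage points were not detectable there.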

How the data were processed

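Splice junctions were read from 6 libraries of poly(A)+ RNA from K562 cells, 3 per group. Per the submitters' processing notes, the authors used STAR and the build hg19; the STAR version, annotation and junction filters are not given in the sources used here. The deposited tables hold raw counts of uniquely mapped and multi-mapped reads per junction, with annotation status, motif code and the largest overhang in nt (another unit, deposited by the authors as whole numbers and used only in an alternative). Coordinates are hg19, 1-based, and name the first or last intron base. Genome sequence and gene models of hg19 were not used here; gene names come from the windows given, exon names from exon length. Other splicing regulators and K562 marker genes need such coordinates and were not analysed here.

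The tables were joined, with missing junctions at 0. Share tests used motif codes 1 to 6 and needed at least 20 reads at the site in every library and 10 on each side over all libraries; cassette exons were at most 500 nt, with inclusion counts rounded to whole numbers. Counts were fitted with edgeR 4.0.16 in R 4.3.3 (quasi-likelihood F-test, robust): each event gave 2 counts in a library, and the model held library intercepts, count type and its interaction with S34F. The coefficient is a change in log2 odds and its SE is the coefficient over the root of F. Levels used TMM. P-values were adjusted by Benjamini-Hochberg over all events of a class. Scripts were tested on simulated data. Alternatives were DESeq2 1.42.0, limma 3.58.1 on log2 odds (pseudocount 0.5), other read minimums, multi-mapped reads, overhang of at least 20 nt, other minimum differences, RLE scaling, a replicate block and leaving out each library. Replicates of a group differed beyond counting noise (chi-square per degree of freedom from 4.70 to 14.7).

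The members and lists were chosen with earlier results of these data known. Named events are those called, the largest difference in share per gene and class, and exons of known length; the other junctions of those sites and exons, acceptors at most 9 nt apart, and further exons given by their means were chosen after their values were seen. Intervals and limits from counts cover counting error only.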

Additional observations from a re-analysis of the deposited data

How the results depend on the processing

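The count of 0 calls held in 15 of 15 alternatives for 3′ sites and in 15 of 15 for exons, in 14 of 15 for 5′ sites and in 11 of 12 for levels. The exceptions were 2 calls at 5′ sites without WT replicate 1 (leave-one-out range 0 to 2), both at the MBNL1 site 152018157, and 1 level call with no low-count filter, the MBNL1 junction to 152019707; the cause was not tested. Some of these alternatives could not have given a call, so their 0 carries no information on these genes. The minimum of 20 percentage points only tightens a rule that already gave 0. The limma test called 0 events in each whole share class. Without S34F replicate 3, 0 exons and 0 junction levels were called over all genes. The replicate block gave 0 calls among these genes in each class. Same-numbered libraries did not deviate together (r from -0.185 to 0.00614 in levels, -0.086 to -0.0229 at 5′ sites), so the numbers were not taken as pairs. Gene totals left out one library at a time gave log2 differences from 0.01 to 0.28 for PTBP1, -0.66 to -0.22 for PTBP2, -0.27 to -0.15 for PTBP3, -0.0251 (without WT replicate 3) to 0.135 for MBNL1 and 0.08 to 0.37 for RBFOX2. MBNL3 allowed no value under any setting.

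Of 415 estimates of 34 named events under alternatives, 401 kept direction and side of the threshold, 2 passed it and 12 changed sign, all of the latter close to 0. Over all alternatives run, log2 odds ranged from -0.0837 to 0.173 for the PTBP1 34 nt exon, whose sign turned without WT replicate 1 (-0.0798), S34F replicate 1 (-0.0837) and S34F replicate 3 (-0.0434). They ranged from -0.0902 to 0.154 for the MBNL1 54 nt exon (turned without WT replicate 1, -0.0902, and S34F replicate 1, -0.0664), from -0.0434 to 0.853 for the MBNL1 36 nt exon and from -0.150 to 0.614 for the PTBP3 34 nt exon near the gene's start. They ranged from -0.125 to 0.438 for the RBFOX2 acceptor at 36177794 (turned also without S34F replicate 1, -0.0735) and from -0.235 to 0.0125 for the PTBP1 acceptor at 804540. The MBNL1 acceptor at 152018669 ranged from -0.952 to 0.0148, the latter without WT replicate 1, and the minor MBNL1 5′ splice site at 151987197 gave -0.0587 with limma. Over all genes the counts of calls moved more. Levels had 1386 calls with DESeq2, 5138 with no low-count filter and 57 with the replicate block against 152, and 0 (WT and S34F libraries left out in turn, lowest without S34F replicate 3, with 10814 at an unadjusted p under 0.05) to 588. For 5′ sites there were 140 with DESeq2, 495 with no low-count filter and 681 at a minimum of 50 reads against 1092, and 77 to 1932 with a library left out. For 3′ sites there were 185 with DESeq2 and 208 with no filter against 451, and 4 to 1208 with a library left out. For exons there were 271 with DESeq2, 312 at 50 reads and 185 with the replicate block against 529, and 0 (without S34F replicate 3, 2568 at an unadjusted p under 0.05) to 1043 with a library left out. The limma test on log2 odds gave 0 calls for the 3 share classes, with 9648, 7794 and 4342 events at an unadjusted p under 0.05. Read depth limits PTBP2, RBFOX2 and MBNL3 most.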
